A study of Mus musculus with 8 samples.

Results

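The anaphase-promoting complex (APC/C) and its regulators were examined through 10 genes, taken by symbol, namely the co-activators Cdc20 and Fzr1, the inhibitor Fbxo5, and the subunits Anapc1, Anapc2, Anapc4, Anapc5, Anapc10, Cdc27 and Cdc16. All 10 were present among the 10530 genes of the input table and the 8898 genes of the HA table, and hence among the 8537 genes shared by both. Libraries were made from MII oocytes of C57BL/6 RiboTagF/F;Zp3-Cre females, either young (1 month) or old (12 to 15 months, retired breeders), with 2 pools of 200 oocytes at each age. In every one of these mice, young and old alike, Cre under the oocyte promoter of Zp3 switches on an HA-tagged ribosomal protein, so that the HA immunoprecipitation recovers ribosome-bound mRNA and the input (10% of the same lysate) holds total mRNA. All females were primed with 5 IU PMSG followed 48 h later by 10 IU hCG, and oocytes were taken from the oviducts 13 h after hCG. The RNA-Seq was done in a single experiment, and the labels link old to young pools by no more than a replicate number. The p-values here thus measure the spread between these pools.

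The APC/C is a large ubiquitin ligase that marks cell cycle proteins for destruction by the proteasome. It works with a co-activator that brings substrates to it. With CDC20 it destroys cyclin B1 and securin and so allows chromosomes to separate, and with FZR1 (also called CDH1) it keeps cyclin B1 low in oocytes resting in prophase. An MII oocyte is held in metaphase with the APC/C restrained until fertilization, mainly by FBXO43 (EMI2), a relative of FBXO5 (EMI1). Because transcription is silent during meiotic maturation, the supply of these proteins depends on which stored mRNAs are loaded on ribosomes. Loading in maturing oocytes is in large part steered by cytoplasmic polyadenylation elements (CPE), short U-rich motifs in the 3'-UTR that are bound by CPEB1.

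A CPE, searched as TTTTAT or TTTTAAT on the sense strand of the longest 3'-UTR annotated in GENCODE M21, was found in 7 of 10 APC/C genes (70%), against 5773 of 8192 genes of the HA table with an annotated 3'-UTR (70.5%). The 3'-UTRs themselves differed widely in length. That of Cdc20 has 62 bases and holds 2 motifs, that of Fbxo5 has 411 bases and 2 motifs, and that of Cdc27 has 2853 bases and 8 motifs, with a median length of 1326 bases over the HA table. Anapc1, Anapc4, Anapc5 and Anapc10 hold between 1 and 5 motifs, and no match was found in Fzr1, Anapc2 or Cdc16. The sites nearest to the 3' end are shown for the 3 genes with a motif whose ribosome-bound mRNA is described at most length below, with the motif in capitals (DNA letters, 5' to 3' on the sense strand, GRCm38).
Cdc20, chr4:118432919-118432946, minus strand: tcttgtttttaTTTTATtttttctaata
Fbxo5, chr10:5799227-5799254, minus strand: atgtgagttttTTTTATatctgtgaata
Cdc27, chr11:104503115-104503142, minus strand: acttaacaattTTTTATtttacccaaga
The motif starts 35 bases from the annotated 3' end in Cdc20, 84 bases in Fbxo5 and 387 bases in Cdc27. A match is a description of these letters and was not tested as a site.

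Levels are CPM, the reads of a gene relative to those of its library, after a TMM scaling that was set separately for the HA and the input tables. A TMM factor corrects for a few strong genes taking up much of a library. Between 37817382 and 59688578 reads were counted on genes in the HA libraries and between 38276453 and 60052814 in the input libraries, so that 3 reads, taken as the floor, equal 0.0388 to 0.111 CPM in HA and 0.0435 to 0.0788 CPM in input. These reads carry no molecular identifiers, so floors and intervals cover counting error only. Translation efficiency (TE) is HA CPM over input CPM of the same pool. Its median over all genes was 0.716 and 0.615 in old pools against 0.730 and 0.728 in young pools. Ages were compared with limma on log2(CPM + 1), two-sided, and p-values were adjusted over the whole table by the Benjamini-Hochberg method. On that scale differences of genes with low CPM are understated. Every log2 difference is old minus young on that scale, with its standard error. An exact permutation test of 2 pools against 2 cannot give a p under 0.333.

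Oocyte markers were present in all libraries (8 of 10 listed genes in each table), with summed levels of 8088 to 8425 CPM in old and 9299 to 9350 CPM in young input, and of 11157 to 16324 CPM in old and 10148 to 10856 CPM in young HA. Of 14 cumulus and granulosa markers, 9 were in the input table, with sums of 32.6 to 117 CPM in old and 90.5 to 197 CPM in young pools. In HA 3 of the 14 were present (Cyp19a1, Fshr and Ptgs2), with sums of 81.7 to 83.8 CPM in old and 156 to 182 CPM in young pools. The part of these cells in the differences reported here was not tested. None of the 4 oviduct or 4 blood and immune markers was in either table. Old HA pools differed from each other more than the other libraries, with a median of 3.30-fold between the higher and the lower pool over all genes, against 1.81-fold in young HA, 1.83-fold in old input and 1.57-fold in young input. For the APC/C genes these medians were 2.83-fold, 1.49-fold, 1.78-fold and 1.51-fold, and 8 of 10 differed by over 2-fold between the old HA pools.

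With age, the ribosome-bound mRNA of 1 of 10 APC/C genes, Cdc27, was higher at an unadjusted p under 0.05, and none was lower. In pools of oocytes, fewer cells with an mRNA and less of it per cell cannot be told apart. No APC/C gene passed the adjusted threshold in input, HA or TE, where the smallest adjusted p among them was 0.827, 0.311 and 0.739 (limma). Over all genes 0.00950% of the input table passed at an adjusted p under 0.05 (1 gene), and 0% of the HA table and 0% of the TE values did in limma. On recovered reads HA calls numbered 0 in edgeR's quasi-likelihood test, 295 in its likelihood ratio test and 508 in DESeq2, none of them an APC/C gene of the 10. At an unadjusted p under 0.05, 4.28% of HA genes were higher in old oocytes and 10.5% were lower, so that 1 of 10 is near the background. In input 0 of 10 APC/C genes passed that threshold in either direction, where 2.71% of all genes were higher and 3.48% were lower. In TE it was again 0 of 10, where 2.98% were higher and 3.51% were lower. Old and young values did not overlap for 2 APC/C genes in input, 3 in HA and 5 in TE, and the background of non-overlapping genes was 35.3%, 41.9% and 37.6%. Their median log2 difference was -0.14 in input, -0.16 in HA and 0.11 in TE, and over all genes it was -0.03, -0.14 and -0.10. With libraries rescaled to the same sum the median of the 10 in TE was -0.30, and after quantile normalization it was -0.07. In HA it was -0.78 when rescaled to the same sum (-0.68 over all genes) and 0.49 in DESeq2 (0.33 over all genes). When rescaled to the median ratio it was 0.04 in HA (0.04 over all genes). With 1 pool left out these medians ran from -0.16 to 0.17 in input, from -0.15 to 0.46 in HA and from -0.14 to 0.39 in TE. Cdc27 had log2 differences of 1.86 in HA and 1.54 in TE without old pool 1, and of 0.76 and 0.22 without old pool 2. Those of Cdc16 were -3.13 and -3.31 without old pool 1, and 1.64 and 3.94 without old pool 2. Fzr1 in TE was at -5.46 without old pool 1 and at -0.59 without old pool 2.

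**Figure D1:**
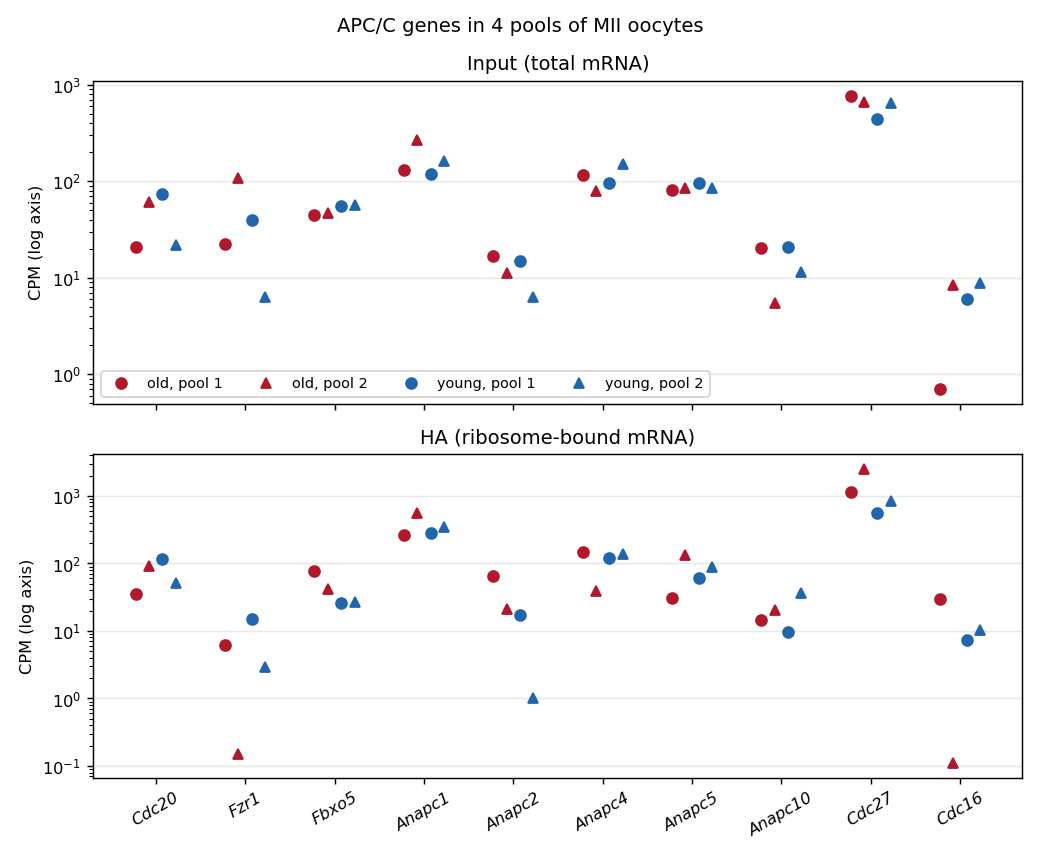
CPM (log axis) of the 10 APC/C genes in the 4 input libraries (top) and the 4 HA libraries (bottom), 1 point per pool, old in red and young in blue. Cdc27 has the highest CPM in every library, and Fzr1 and Cdc16 stand at 0.148 and 0.111 CPM in the HA library of old pool 2.

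The co-activator Cdc20 gave no difference between ages that exceeded the spread between pools. In input it was at 21.1 and 60.9 CPM in the old pools and at 74.0 and 21.9 CPM in the young pools. Ribosome-bound Cdc20 was at 35.6 and 92.3 CPM in old and at 117 and 51.9 CPM in young pools. The ages overlapped in both, and each age had a high and a low pool, the same pool in input and in HA. The means were 41.0 ± 28.1 and 48.0 ± 36.9 CPM in input and 63.9 ± 40.0 and 84.3 ± 45.9 CPM in HA (SD, n = 2 pools, old and young). By limma the difference was -0.16 (standard error 0.76, adjusted p = 0.985) in input and -0.43 (0.83, adjusted p = 0.906) in HA. Its HA to input ratio was steadier than either level, at 1.69 and 1.52 in old and 1.58 and 2.37 in young pools, which placed Cdc20 between the 70.0 and the 90.0 percentile of all genes in every pool. The TE estimate was -0.27 (0.96, adjusted p = 0.967). On the genome Cdc20 (ENSMUSG00000006398.15, chromosome 4, 118432901 to 118437352 of GRCm38) overlaps Elovl1 on the opposite strand, which is also in the tables. Reads were counted without regard to strand, so reads from the shared stretch cannot be told apart.

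Fzr1, the other co-activator and the one linked to prophase arrest, had the widest swings of the regulators. Input Fzr1 was at 22.7 and 108 CPM in old and at 39.4 and 6.31 CPM in young pools, and the ages overlapped. In HA it was at 6.30 and 0.148 CPM in old and at 15.1 and 2.93 CPM in young pools, from 265, 4, 1166 and 166 reads. Old pool 2 was thus the highest of the 4 pools for total Fzr1 mRNA and the lowest for ribosome-bound Fzr1. The HA to input ratio was 0.277 and 0.00137 in old pools and 0.382 and 0.464 in young pools, so both old pools lay below both young pools. Exact 95% counting intervals were 0.242 to 0.316 in old pool 1, 0.000372 to 0.00350 in old pool 2, 0.357 to 0.410 in young pool 1 and 0.378 to 0.568 in young pool 2. These values stood at the 29.0, 0.304, 20.6 and 31.5 percentiles, below the median of all genes in each pool. The estimates were 1.57 (standard error 1.00, adjusted p = 0.835, limma) in input, -1.46 (1.51, adjusted p = 0.783) in HA and -3.02 (1.92, adjusted p = 0.756) in TE. With 1 pool left out, these ran from 0.33 to 2.80 in input and from -2.79 to -0.12 in HA. In TE they ran from -5.46 (without old pool 1) to -0.59 (without old pool 2). Fzr1 (ENSMUSG00000020235.16, chromosome 10, 81366222 to 81378516) overlaps Mfsd12, which is in neither table.

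Ribosome-bound Fbxo5, which encodes the inhibitor EMI1, was higher in both old pools than in both young pools, while its total mRNA was lower in both. How many of all genes show such opposite orders was not counted. The input values lay close together, at 45.0 and 47.2 CPM in old and 55.3 and 57.2 CPM in young pools (46.1 ± 1.53 and 56.2 ± 1.32 CPM, SD, n = 2). In HA the old pools were at 77.6 and 42.5 CPM and the young pools at 26.3 and 26.4 CPM (60.1 ± 24.8 and 26.3 ± 0.0896 CPM), a 2.28-fold higher mean in old oocytes. The young pools were nearly equal and the spread lay in the old ones. The HA to input ratio was 1.72 and 0.901 in old and 0.475 and 0.462 in young pools, which placed Fbxo5 at the 28.4 and 31.3 percentiles in young and at the 76.0 and 57.8 percentiles in old oocytes. In limma the estimate was -0.28 (standard error 0.45, adjusted p = 0.963) in input, 1.10 (0.88, adjusted p = 0.697) in HA and 1.38 (1.03, adjusted p = 0.795) in TE. None of them passed the test. The HA difference was 0.48 when libraries were rescaled to the same sum and 0.67 without old pool 1. Fbxo5 (ENSMUSG00000019773.7) spans 5799160 to 5805600 on chromosome 10.

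Anapc1, the large scaffold of the complex, kept a high and narrow HA to input ratio. It was at 132 and 271 CPM in old and 120.5 and 162 CPM in young input, and at 260.2 and 557 CPM in old and 282 and 348 CPM in young HA. The ratio was 1.97 and 2.05 in old and 2.34 and 2.15 in young pools (2.01 ± 0.0564 and 2.25 ± 0.137, SD, n = 2), all at or above the 77.1 percentile. Old pools lay below young pools by -0.16 on the log2 scale (standard error 0.56, limma), which did not pass the test (adjusted p = 0.967). In input and HA the log2 differences were 0.44 (0.40, adjusted p = 0.906) and 0.28 (0.51, adjusted p = 0.90). That in HA was negative in 3 of 15 alternative settings. Anapc1 (ENSMUSG00000014355.10) spans 128610104 to 128687391 on chromosome 2.

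Anapc2 encodes the cullin that, with the RING subunit ANAPC11, forms the catalytic core. Its input level was 17.0 and 11.3 CPM in old and 15.1 and 6.41 CPM in young pools, which overlap. On ribosomes it was at 64.1 and 21 CPM in old and at 17.2 and 1.00 CPM in young pools (42.5 ± 30.5 and 9.09 ± 11.4 CPM, SD, n = 2). Both old pools were thus above both young pools, though the lower old and the higher young pool lay close together. The HA to input ratio followed the same order, at 3.77 and 1.86 in old and 1.13 and 0.157 in young pools. The log2 difference of 2.65 in HA (standard error 1.62, adjusted p = 0.558, limma) was the highest of the 10 APC/C genes, and that in TE was 2.20 (1.58, adjusted p = 0.782). Without young pool 2 the HA difference was 1.06. Anapc2 (ENSMUSG00000026965.12) spans 25272478 to 25285915 on chromosome 2.

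Cdc27 (APC3), which binds the co-activators through its tetratricopeptide repeats, was the single gene of the 10 past an unadjusted p under 0.05 in HA. In HA it was at 1157 and 2495 CPM in old and at 553 and 849 CPM in young pools (1826 ± 946 and 701 ± 209 CPM, SD, n = 2), a 2.61-fold higher mean in old oocytes. Both old pools lay above both young pools. The limma estimate was 1.31 on the log2 scale (standard error 0.48, adjusted p = 0.311). The 10% of genes with the highest mean HA CPM, to which Cdc27 belongs, had a median difference of 0.61 in HA and 0.51 in TE. Total Cdc27 mRNA was at 772 and 668 CPM in old and 444 and 643 CPM in young pools, again without overlap, with a log2 difference of 0.43 (0.27, adjusted p = 0.827). The HA to input ratio was 1.5 and 3.73 in old and 1.25 and 1.32 in young pools, and its log2 difference of 0.88 (0.50, adjusted p = 0.739) did not pass. Old pool 2 carried the greater part of it, as the TE difference was 0.22 without that pool and 1.54 without old pool 1. In HA the difference stayed positive in 15 of 15 alternative settings (0.60 to 1.86). It was 1.86 without old pool 1, 0.76 without old pool 2, 1.00 without young pool 1 and 1.62 without young pool 2. With all 4 pools the unadjusted threshold was missed when libraries were rescaled to the same sum (0.67) and after quantile normalization (0.60). It was also missed without the trend (1.31) and in DESeq2 (1.61). Adjusted p-values with all 4 pools ranged from 0.244 (limma with a replicate block) to 0.771 (limma after quantile normalization). Cdc27 (ENSMUSG00000020687.13) spans 104502745 to 104550620 on chromosome 11.

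Cdc16 (APC6), another tetratricopeptide repeat subunit, had the lowest mean CPM in input and swung between the old pools. Its input level was 0.698 and 8.41 CPM in old and 6.08 and 8.83 CPM in young pools, from 38, 419, 419 and 336 reads. In HA it was at 29.4 and 0.111 CPM in old and 7.46 and 10.3 CPM in young pools, from 1238, 3, 577 and 582 reads. The old pool with the least total Cdc16 thus had the most on ribosomes, and the other old pool had the reverse. The HA to input ratio was therefore 42.1 and 0.0132 in old pools (exact 95% counting intervals 30.5 to 59.8 and 0.00271 to 0.0388), against 1.23 and 1.16 in young pools (1.08 to 1.39 and 1.01 to 1.33). These intervals do not cover the spread between pools. No age difference passed the test, with log2 differences of -1.06 (standard error 1.15) in input, -0.75 (1.93) in HA and 0.31 (2.30) in TE (adjusted p = 0.926, 0.937 and 0.980, limma). The TE difference was -3.31 without old pool 1 and 3.94 without old pool 2. That in HA was -3.13 and 1.64 without these pools, 0.74 in both edgeR tests and 0.86 in DESeq2. Cdc16 (ENSMUSG00000038416.15) spans 13757676 to 13781938 on chromosome 8.

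The remaining subunits showed no difference beyond the spread between pools. Anapc4, part of the platform that joins the parts of the complex, was at 116 and 79.1 CPM in old and 95.8 and 151 CPM in young input, and at 146 and 39.6 CPM in old and 121 and 137 CPM in young HA. Anapc5, its neighbour in the complex, was at 81.2 and 85.9 CPM in old and 95.9 and 84.8 CPM in young input, and at 30.6 and 134 CPM in old and 61.7 and 88.8 CPM in young HA. For both genes the young HA libraries lay close together and inside the range of the old ones. Anapc10, which helps the co-activator to recognise substrates, was at 20.3 and 5.44 CPM in old and 20.7 and 11.4 CPM in young input. In HA it was at 14.7 and 20.7 CPM in old and at 9.80 and 35.9 CPM in young pools. Pool 2 of each age had the lower Anapc10 input and the higher HA level, and the ratio was 0.724 and 3.80 in old and 0.473 and 3.15 in young pools. The log2 difference in HA was -0.75 (standard error 0.77) for Anapc4, -0.20 (0.88) for Anapc5 and -0.11 (1.29) for Anapc10, with adjusted p = 0.783, 0.968 and 0.990 (limma). In TE it was -0.42 (0.81), -0.09 (0.96) and 0.37 (1.65), with adjusted p = 0.931, 0.988 and 0.972. Anapc4 and Anapc5 (ENSMUSG00000029176.13 and ENSMUSG00000029472.13) lie on chromosome 5 at 52834012 to 52867797 and 122787459 to 122821339. Anapc10 (ENSMUSG00000036977.8) lies on chromosome 8 at 79711820 to 79779059 and overlaps an antisense gene and a pseudogene that are in neither table.

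**Figure D2:**
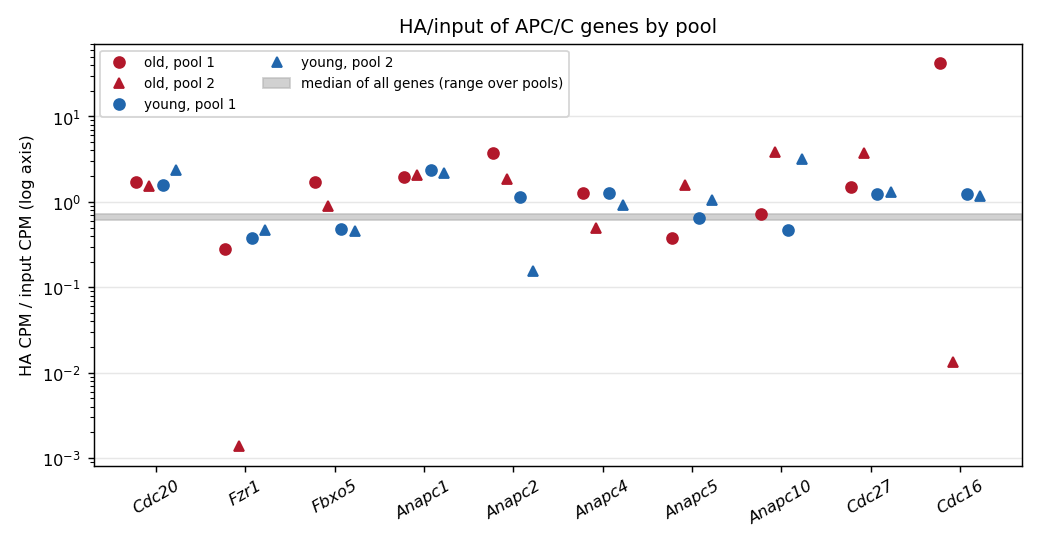
HA CPM over input CPM (log axis) of each APC/C gene, 1 point per pool, with the range over pools of the median of all genes (0.615 to 0.730) in grey. Cdc20 and Anapc1 lie above the grey band and Fzr1 below it in each of the 4 pools, Fbxo5 lies above it in both old and below it in both young pools, and Cdc16 runs from 0.0132 to 42.1 within the old pools.

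**Figure D3:**
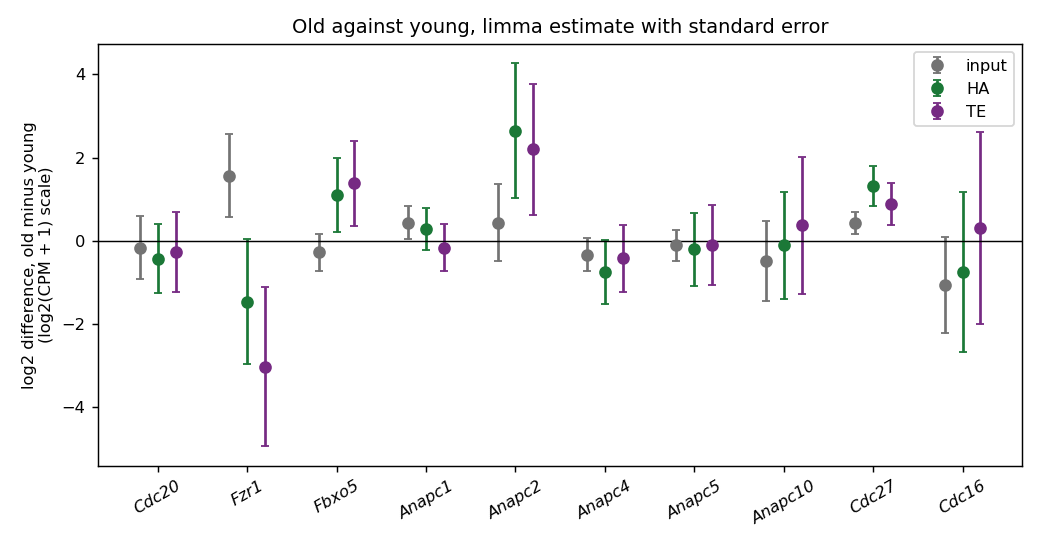
Log2 difference, old minus young on the log2(CPM + 1) scale, of each APC/C gene in input, HA and TE, as the limma estimate with its standard error. Cdc27 in HA (1.31, standard error 0.48) is furthest from 0 relative to its error, and in HA the error bars of 3 genes (Cdc27, Anapc2 and Fbxo5) do not reach 0.

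Per kilobase of exon, Cdc27 stood above the others. The Methods name the gene as the feature counted, so reads in introns may be included while the length covers exons only. The order of genes below carries that limit. In HA it averaged 202 CPM per kb over the 4 pools (88.5 to 399), and its range did not reach that of Cdc20, the next, at 39.7 (19.1 to 62.5). They were followed by Anapc1 and Fbxo5 (each 21.6), Anapc4 (18.2), Anapc5 (12.9), Anapc2 (7.49), Anapc10 (4.19), Cdc16 (3.81) and Fzr1 (1.36). From Cdc20 downwards the ranges of neighbours in this order overlapped, so these ranges do not separate neighbours. Genes were not compared within each pool. Some ranges further apart did not overlap, as Cdc20 lay wholly above Anapc2 (0.292 to 18.6), Anapc10 (2.03 to 7.42), Cdc16 (0.0357 to 9.48) and Fzr1 (0.0329 to 3.36). In input Cdc27 again led with 101 CPM per kb (71.0 to 124), ahead of Fbxo5 (25.5) and Cdc20 (23.8). Cdc16 was the lowest there at 1.93, and Fzr1 at 9.84 stood between Anapc1 (10.3) and Anapc2 (3.62). Every pair of neighbours below Cdc27 overlapped in input too.

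The genes whose levels moved most like those of Cdc20 across the 8 libraries were Pramef8, Mrpl3 and Hnrnpm. Likeness was the Euclidean distance between centred log2(CPM + 1) values, which was 0.989, 1.30 and 1.32 for these genes against a median of 3.90 over the 8536 genes compared. Their Pearson correlation with Cdc20 was 0.923, 0.898 and 0.863. It is over 8 libraries that share 4 pools and a scaling, and is given as a description. Pramef8, for example, was at 17.7 and 58.2 CPM in old and 41.4 and 24.8 CPM in young HA.

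Beyond the 10 genes, the other 7 subunits of the complex (Anapc7, Anapc11, Anapc13, Anapc15, Anapc16, Cdc23 and Cdc26) had 2 members past an unadjusted p under 0.05 in HA, both lower in old oocytes. In HA 1 was above and 6 were below 0, 2 of 7 were lower at that threshold where 10.5% of all HA genes were, and the median log2 difference was -0.82 against -0.14 over all genes. Of the 7, 3 were above 0 after quantile normalization (median -0.27) and 0 were with libraries rescaled to the same sum (median -1.23). With 1 pool left out the HA median ran from -1.66 (without old pool 2) to -1.23 (without young pool 1). Over all HA genes the median difference was lower for weaker genes, at -0.97, -1.02 and -0.94 in the 3 lowest of 10 classes of mean CPM. Cdc23 (APC8), a tetratricopeptide repeat subunit, had 5 and 2 reads in old and 1407 and 287 reads in young HA (0.119 and 0.0739 against 18.2 and 5.06 CPM, adjusted p = 0.297, limma). On recovered reads the adjusted p of Cdc23 was 0.00756 in DESeq2, 0.0512 in edgeR's likelihood ratio test and 0.294 in its quasi-likelihood test. The small subunit Anapc13 had 0 and 1 reads in old and 193 and 79 in young HA (adjusted p = 0.297, limma). Its log2 difference was -1.48 and -1.53 without old pool 1 or 2, and -1.23 and -1.78 without young pool 1 or 2. Its unadjusted p was no longer under 0.05 at a pseudocount of 5 CPM (-0.46) and after quantile normalization (-0.56). The same held without the trend (-1.51) and in DESeq2 (-6.55). At these levels old and young pools did not overlap, but the lower CPM rests on 5 reads or fewer in each old library. In input 0 of 7 passed and the median was -0.51 (0.05 without old pool 2), with Anapc15 lowest (-1.0) and Anapc11, the RING subunit, highest (0.58). In TE 0 of 7 passed and the median was -0.91 (-0.12 without old pool 1, -1.71 without old pool 2), from Cdc23 (-2.82) to Anapc16 (1.12), which in HA had the highest value of the list (0.17).

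The 3 ubiquitin-conjugating enzymes (E2) that serve the APC/C had 1 member higher and 1 lower in old input at an unadjusted p under 0.05, where 2.71% and 3.48% of all genes were. None passed the adjusted threshold in limma. Ube2d1 was at 50.1 and 122 CPM in old and 18.9 and 4.02 CPM in young input (log2 difference 2.99, adjusted p = 0.778, limma), higher in both old pools. On recovered reads the adjusted p of Ube2d1 was 0.0131 in DESeq2, 0.111 in edgeR's likelihood ratio test and 0.814 in its quasi-likelihood test. Without young pool 2 the limma difference was 2.00 and missed the unadjusted threshold. Ube2c, the initiating enzyme, was at 65.8 and 67.0 CPM in old and 199 and 105 CPM in young input (-1.11, adjusted p = 0.778), lower in both old pools. Without young pool 1 it was -0.65 and missed the unadjusted threshold. Ube2s, which extends the ubiquitin chain, was at 11.5 and 10.4 CPM in old and 34.1 and 35.6 CPM in young input (-1.59, adjusted p = 0.778). Old and young pools thus did not overlap for any of the 3 in input, where 35.3% of all genes did not, and the median was -1.11 (-0.65 without young pool 1). In HA and TE 0 of 3 passed. The median was 0.03 in HA (-0.60 at equal library sums, -2.10 without old pool 2, -0.70 and -0.44 without young pool 1 or 2), from Ube2s (-2.16) to Ube2d1 (0.43), and -0.58 in TE, from Ube2d1 (-2.56) to Ube2c (1.14). The TE median was 0.10 after quantile normalization, -0.06 without old pool 1 and -1.10 without old pool 2.

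Among 11 other inhibitors and upstream regulators, of which 9 were in the input and 8 in the HA table (Bub3 and Usp44, and for HA also Trip13, were not analysed here), 3 were higher and 1 was lower in old HA at an unadjusted p under 0.05, where 4.28% of all HA genes were higher and 10.5% were lower. Fbxo43, the APC/C inhibitor that maintains the MII arrest, was at 251 and 339 CPM in old and 73.8 and 67.8 CPM in young HA (log2 difference 2.03, standard error 0.53, adjusted p = 0.297, limma). It was also higher in old input, at 163 and 154 CPM against 62.8 and 65.7 CPM (1.29, 0.35, adjusted p = 0.778). Across 15 alternative settings the Fbxo43 difference ran from 1.40 to 2.29 in HA and from 1.10 to 1.33 in input. With all 4 pools its unadjusted p was under 0.05 in each setting. On recovered reads its adjusted p in HA was 0.0876 in DESeq2, 0.116 in edgeR's likelihood ratio test and 0.294 in its quasi-likelihood test. In input these were 0.0539, 0.166 and 0.805. Its ratio was 1.54 and 2.20 in old and 1.18 and 1.03 in young pools, and that difference did not pass (0.74, 0.71, adjusted p = 0.850). Of the spindle checkpoint genes whose products bind CDC20, Mad2l1 was at 526 and 647 CPM in old and 251 and 249.5 CPM in young HA (1.22, adjusted p = 0.297). Bub1b, which encodes BUBR1, was at 5957 and 6107 CPM in old and 3773 and 2571 CPM in young HA (0.95, adjusted p = 0.304). Both missed the unadjusted threshold at equal library sums (0.58 and 0.31) and after quantile normalization (0.58 and 0.49). They also missed it without the trend, in edgeR's likelihood ratio test and in DESeq2. Without young pool 1 the differences were 1.22 and 1.23, and without young pool 2 they were 1.22 and 0.68. In input Bub1b overlapped, at 1613 and 1233 CPM in old and 1388 and 1291 CPM in young pools, and its TE was the single value of the list past an unadjusted p under 0.05, with ratios of 3.69 and 4.95 in old and 2.72 and 1.99 in young pools (0.88, adjusted p = 0.739). That was lost at equal library sums (0.43), after quantile normalization (0.58), without the trend (0.88) and in edgeR's quasi-likelihood interaction (0.84). The TE difference of Bub1b was 0.67 without old pool 2 and 0.65 without young pool 2. Mad2l1 and Bub1b, like Cdc27, are among the 10% of genes with the highest HA CPM, with their median of 0.61 in HA and 0.51 in TE. Cdk1, the kinase that phosphorylates the APC/C, was lower in HA, at 0.855 and 0.444 CPM in old and 9.14 and 20.7 CPM in young pools (-3.18, adjusted p = 0.325), with 36, 12, 707 and 1174 reads, and passed the unadjusted threshold in 9 of 14 alternative settings. It missed it without young pool 1 (-3.73), after quantile normalization (-2.07), with a replicate block (-3.18), at a pseudocount of 0.1 CPM (-4.27) and in edgeR's quasi-likelihood test (-4.51). Its TE had the lowest difference of the list (-3.64, adjusted p = 0.739) and that of Mad2l1 the highest (0.90). Mad2l1bp had the lowest input difference (-1.79, adjusted p = 0.782). Over all genes, the 3 highest of 10 classes of mean HA CPM had median differences of 0.29, 0.42 and 0.61 in HA. In TE those classes had 0.28, 0.41 and 0.51, and Fbxo43 stood in the class with 0.42 and 0.41. The median of the list was 0.18 in input, 0.17 in HA and 0.57 in TE. That in HA was -0.45 at equal library sums, -0.06 after quantile normalization, -1.04 without old pool 1 and 0.94 without old pool 2. That in TE was -0.18 without old pool 1 and 0.22 at equal sums, and that in input was -0.06 without young pool 2.

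Of 12 APC/C substrates and separase, 1 was higher in old HA at an unadjusted p under 0.05 and 0 were lower, which is near the 4.28% of all HA genes that were higher, and 0 passed in input or TE. It was Ccnb1, the cyclin whose destruction ends metaphase, at 912 and 1194 CPM in old and 470.1 and 545 CPM in young HA (log2 difference 1.04, standard error 0.38, adjusted p = 0.304, limma). It passed the unadjusted threshold in 7 of 15 alternative settings. It missed it at equal library sums (0.40), after quantile normalization (0.34), and without old pool 2 (0.85), young pool 1 (0.94) or young pool 2 (1.15). Its input overlapped, at 309.5 and 345 CPM in old and 312 and 257 CPM in young pools, and its ratio was 2.94 and 3.46 in old and 1.5 and 2.12 in young pools (0.84, 0.47, adjusted p = 0.739). Like Cdc27, Ccnb1 is among the 10% of genes with the highest HA CPM, with their median of 0.61 in HA and 0.51 in TE. In HA 8 of 12 were above and 4 below 0 with a median of 0.27, from Skp2 (-1.87), a ubiquitin ligase subunit, to Gmnn (1.83), the replication inhibitor geminin. With libraries rescaled to the same sum that median was -0.37, after quantile normalization it was -0.32, and without an old pool it was 0.04 or 0.15. The median was -0.11 in input, from Aurkb (-1.09) to Aurka (0.38), and 0.59 in TE, from Skp2 (-1.55) to Cdc6 (1.95). The input median was 0.05 without old pool 2, and the TE median ran from 0.23 to 0.54 with 1 pool left out. Over all genes the TE median was 0.28, 0.41 and 0.51 in the 3 highest of 10 classes of mean HA CPM. These lists were read on the deposited TMM scale. With HA libraries rescaled to the same sum the median of all genes moved from -0.14 to -0.68, and the genes at an unadjusted p under 0.05 moved from 381 higher and 930 lower to 112 and 1283.

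**Figure D4:**
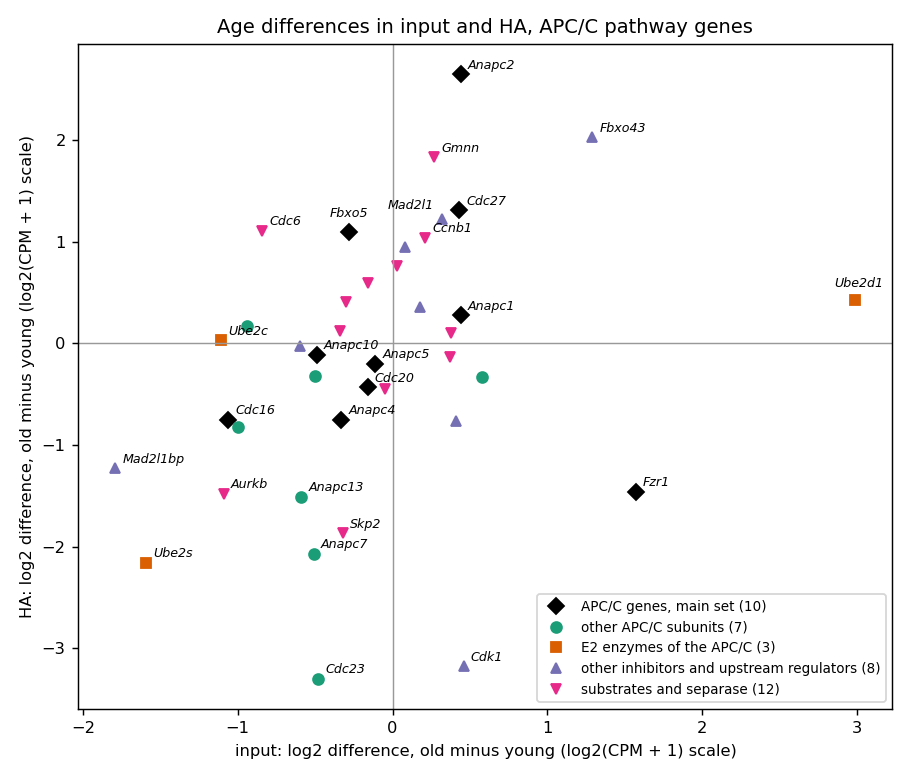
Log2 difference (old minus young, log2(CPM + 1) scale) in HA against that in input for the 10 APC/C genes (diamonds) and the 4 other lists of the pathway, with these 10 and any gene beyond 1 in either table named. Fbxo43, Cdc27, Mad2l1 and Ccnb1 lie above 0 on both axes, Fbxo5 above 0 in HA and below 0 in input, and Cdc23 and Cdk1 lowest in HA.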

How the data were processed

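RiboTag IP/RNA-Seq of 4 pools of MII oocytes (8 libraries) was analysed. The authors trimmed reads with Trimmomatic 0.36, aligned them with HISAT2 to GRCm38, counted them per gene of GENCODE M11 with HTSeq without strand, and deposited the signal values as CPM after TMM scaling in edgeR. A cutoff of 10 CPM in 2 or more samples is described in the Methods, yet the second-highest value of a gene goes down to 0.788 CPM in HA and 0.885 CPM in input. Every value was a whole multiple of 1 read (100% of values within 0.01 reads), so that reads were recovered.

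Ages were compared with limma (lmFit, eBayes with trend) on log2(CPM + 1), separately for HA, input and TE (log2(HA CPM + 1) minus log2(input CPM + 1)), at a threshold of 0.05. Alternatives were pseudocounts of 0.1 and 5 CPM, a filter of 10 CPM, other scalings, eBayes without trend, a replicate block, each pool left out, and edgeR and DESeq2 on recovered reads. Scripts were tested on simulated data. Genes and lists were chosen with earlier results of these data known. All 10 APC/C genes are named, and genes of the other lists where an unadjusted p was under 0.05 or their difference was the highest or lowest of the list in a table. Coordinates, exon lengths and 3'-UTRs are from GENCODE M21 (99.8% of HA identifiers matched). The CPE search was added after the data were seen. Software was Python 3.11.15 (pandas 2.3.3, numpy 2.4.6, matplotlib 3.10.9) and R 4.3.3 with DESeq2 1.42.0, edgeR 4.0.16 and limma 3.58.1.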

Additional observations from a re-analysis of the deposited data

Results flagged for a closer look

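Fbxo5 was singled out because both old pools were above both young pools in ribosome-bound mRNA and below them in total mRNA. Old and young values did not overlap for 35.3% of all genes in input and 41.9% in HA. The genes with opposite orders in input and HA were not counted. The log2 difference in HA less that in input was 1.38, and the test of that difference did not pass (adjusted p = 0.795, limma). Groups of 2 pools are too small for a check on single outlying pools.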

How the results depend on the processing

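The number of genes at an unadjusted p under 0.05 depended on the settings. For input old vs young it was 651 (285 higher, 366 lower in old), 378 (248 and 130) under a 10 CPM cutoff (reached by 2 or more libraries), and 303 to 1169 with each pool left out in turn. For HA old vs young it was 1311 (381 and 930), 537 (375 and 162) under that cutoff, 483 (253 and 230) after quantile normalization, and 1062 to 2326 with each pool left out. For TE old vs young it was 554 (254 and 300), 931 (281 and 650) by edgeR's quasi-likelihood interaction, and 46 to 2142 with each pool left out. Rescaled to the same sum the splits were 179 and 537 in input and 107 and 470 in TE, and rescaled to the median ratio 500 and 839 in HA and 353 and 244 in TE. At an adjusted p under 0.05, edgeR's likelihood ratio test called 50 genes in input and 295 in HA, DESeq2 114 and 508, and the quasi-likelihood test 0 and 0. With a single pool left at an age, that pool is assumed to vary like the others. With a replicate block the counts were 678 in input, 1383 in HA and 608 in TE, with 9 HA and 5 TE genes at an adjusted p under 0.05. Same-numbered pools hardly deviated together (correlation 0.0269 in input, 0.0786 in HA, 0.0108 in TE). These values cannot show whether such pools were handled together, which the labels do not state. Of the 10 APC/C genes, 5 kept their sign in every setting in input, 4 in HA (Cdc27, Anapc2, Fbxo5, Fzr1) and 4 in TE. With all 4 pools, Cdc27 in HA was the only one of them with an unadjusted p under 0.05 in any setting. The same counts were not taken over all genes. The HA difference of Cdc27 lost its p under 0.05 when rescaled to the same sum (0.67), after quantile normalization (0.60), without the trend (1.31) and in DESeq2 (1.61), besides 3 of the 4 settings without a pool. That of Cdc16 in TE turned to -3.31 without old pool 1 and was 3.94 without old pool 2. Under the filter of 10 CPM, Cdc16 in input, Fzr1 in HA and both in TE were not tested. The causes were not tested. Fzr1 and Cdc16 had 4 and 3 HA reads in old pool 2, so their HA values there carry wide counting intervals.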
